A study of Mus musculus with 8 samples.

Results

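The ELMO and DOCK family is described here in cultured osteoclasts, the multinucleated cells that resorb bone, with and without Elmo1. The 10 members, Elmo1, Elmo2, Elmo3, Dock1, Dock2, Dock4, Dock5, Dock8, Dock10 and Dock11, were listed by name and found through their Ensembl identifiers among the 46517 genes of the expression table, and all 10 were measured and passed the filter on low values. RNA sequencing was done on 8 libraries, 1 per mouse, 4 from Elmo1+/- mice, the controls, and 4 from mice that lack Elmo1 in every tissue (Elmo1-/-). Control libraries are titled WT, but their genotype labels and the methods of the study give Elmo1+/-, so the controls carry 1 intact copy of Elmo1 and no library here is from a mouse with both copies. Femur marrow cells of mice aged 6 to 8 weeks were first grown in medium with 10% supernatant of L929 cells. L929 cells secrete the growth factor M-CSF. The attached marrow cells were then replated and grown for 7 days with GST-RANKL at 50 ng/ml, the cytokine that drives osteoclast formation. Strain and sex are not given in the labels. The mice came from 2 experiments with 2 mice per genotype in each, and the sources used here do not say which libraries belong to which experiment.

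ELMO proteins are scaffolds with no exchange activity of their own. They bind DOCK proteins, large guanine nucleotide exchange factors that load Rac or Cdc42 with GTP, and so link receptors and the GTPase RhoG at the membrane to remodelling of actin. In osteoclasts Rac activity is needed for the ring of podosomes that seals the cell to bone, and Dock5 is known as an exchange factor that this ring depends on. Dock1, Dock2 and Dock5 form the subfamily DOCK-A, which binds ELMO and acts on Rac, and Dock4 of the subfamily DOCK-B binds ELMO too. Dock8, Dock10 and Dock11 belong to the other subfamilies, which mostly act on Cdc42.

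The libraries held between 20905502 and 40846651 reads on genes. The cultures had the markers of osteoclasts, with mean normalized counts (reads per gene divided by 1 size factor per library) of 412783 for Mmp9, 213320 for Ctsk and 165994 for Acp5. Macrophage markers were high as well (Adgre1, mean 97960), and neutrophil markers were led by S100a8 (mean 12841). Of the B and T cell markers, Pax5 (mean 0.974) and Cd3e (mean 0.118) were near 0, but Cd79b (mean 239) and Cd4 (mean 114) were not, and the summed counts were 164 to 416 for the B cell and 42.8 to 234 for the T cell list. In both genotypes the libraries numbered 1 and 2 stood apart from those numbered 3 and 4 on the first principal component, which held 62.3% of the variance, with Elmo1-/- library 2 in between. Xist reads were present in 1 of the 4 libraries numbered 1 and 2 (Elmo1-/- library 2) and in all 4 numbered 3 and 4, while the other 3 libraries had reads of Y-linked genes and no Xist. These are bulk cultures, so fewer cells of a type and less RNA per cell cannot be told apart.

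Elmo1 was the check of the labels, and it told Elmo1-/- from control in every library. With no reference library of both copies, Elmo1 cannot show whether the controls carry 1 copy or both. Its normalized counts in the 4 Elmo1+/- libraries were 1528, 1423, 1769 and 1651, and in the 4 Elmo1-/- libraries 274, 287, 316 and 291. The groups lay far apart, with each Elmo1-/- library below every control. The mean fell from 1593 ± 150 (SD, n = 4) to 292 ± 17.6 (SD, n = 4), that is, to 18.3% of the control level. The log2 difference on the scale of log2(normalized count + 1) was -2.44 (SE 0.09, 95% interval -2.64 to -2.24, limma, Benjamini-Hochberg adjusted p = 8.4e-06). The exact two-sided permutation test over the 70 arrangements of 4 and 4 libraries gave p = 0.0286, the smallest value it can give. Elmo1 was the only gene past the threshold of 0.05 by limma, 1 of 14139 genes tested (0.00707%), and 133 genes had an unadjusted p under 0.05. That count was 411 with libraries 1 and 2 against 3 and 4 as a term. It was 1100 with the presence of Xist reads as a term instead, and Elmo1 alone was called in either fit. Reads of Elmo1 thus remained in all 4 Elmo1-/- libraries, from 240 upwards as whole reads. Elmo1 (ENSMUSG00000041112) lies on the plus strand of chromosome 13 at 20090596 to 20608353 (GRCm38), and 403 of its 12580 exonic bases are shared with Gm32036 on the other strand. The table gives 1 value per gene, so the exons from which the remaining reads come cannot be told apart.

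**Figure D1:**
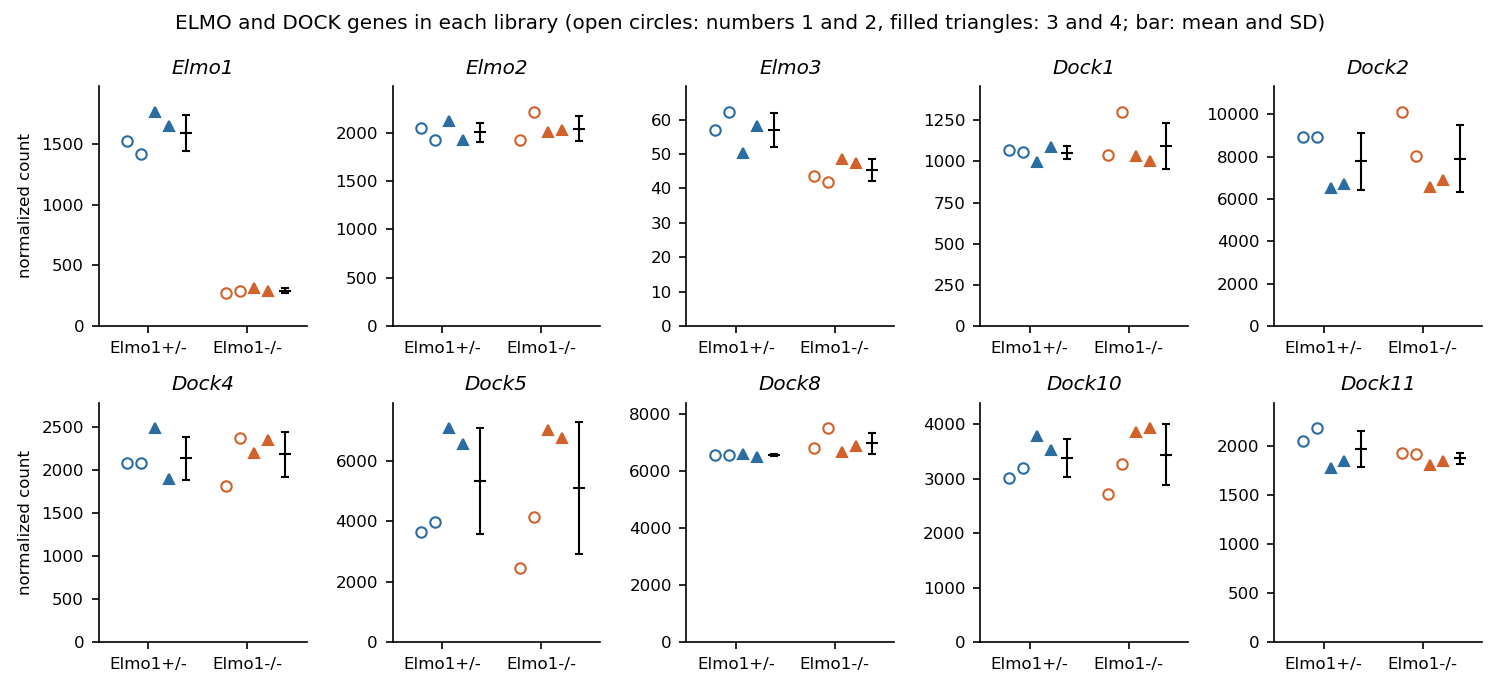
Normalized counts (y axes, each from 0) of the 10 genes in the 8 libraries, Elmo1+/- in blue and Elmo1-/- in orange, with open circles for numbers 1 and 2, filled triangles for 3 and 4, and bars for the mean and SD of 4. Elmo1 drops from between 1423 and 1769 to between 274 and 316. Dock5, Dock10 and Dock2 were called by library number, where limma called 32.6% of all genes tested, and were not called between genotypes. With the presence of Xist reads as a further term, none of them was called by library number.

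None of the other 9 members passed the threshold in either direction. Their log2 differences, Elmo1-/- minus Elmo1+/-, ranged from -0.32 to 0.09 with a median of 0.02, beside a median of -0.0031 over all genes tested. The difference was above 0 for 6 and below 0 for 3 of them, and it had the same sign within the libraries numbered 1 and 2 as within those numbered 3 and 4 for 3 of the 9. No rise of a paralog or a partner passed the test. The intervals below give the size of rise that these 8 libraries leave possible in a model of genotype alone, unless stated. That model counts the split by library number as spread within a genotype.

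Elmo2 is the paralog of Elmo1 with the highest level here, and its product has the same scaffold role. Its counts in the Elmo1+/- libraries were 2049, 1920, 2117 and 1924, and in the Elmo1-/- libraries 1922, 2217, 2002 and 2030. The ranges overlapped almost completely. The log2 difference was 0.03 (SE 0.07, 95% interval -0.13 to 0.18, limma adjusted p = 0.9999), so that a rise above 13.5% lay outside the interval. An exact permutation test gave p = 0.686. Elmo2 was also among the least variable members, with a highest library only 1.15 times its lowest.

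Elmo3 was the scarcest member, with 33 to 63 reads per library. Its counts were 57.0, 62.3, 50.2 and 58.1 in the Elmo1+/- libraries and 43.5, 41.9, 48.4 and 47.5 in the Elmo1-/- libraries. All 4 Elmo1-/- values lay below all 4 controls. The difference was -0.32 (SE 0.14, 95% interval -0.64 to -0.0035) with an unadjusted limma p of 0.048, and it did not pass the correction (adjusted p = 0.9999). With the number set as a term the interval was -0.65 to 0.01, and with the replicate number as a block -0.70 to 0.06. Ranges that do not overlap were found for 133 of the 14139 genes (0.941%), of which 71 lay wholly above in Elmo1-/- (0.502%) and 62 wholly below (0.439%). Elmo1 and Elmo3 were the members wholly below, and Dock8 was the member wholly above. Elmo3 shares 111 exonic bases with Mir328 and Gm27320.

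Among the exchange factors that bind ELMO, Dock1 had counts of 1070, 1058, 996 and 1086 in the Elmo1+/- and 1039, 1303, 1035 and 1003 in the Elmo1-/- libraries. Only library 2 of the Elmo1-/- mice was outside the control range. The difference was 0.05 (95% interval -0.16 to 0.26). Dock2, the DOCK-A member of haematopoietic cells, had 8949, 8930, 6514 and 6721 against 10130, 8030, 6589 and 6903, a difference of 0.02 (95% interval -0.35 to 0.39). Dock5 had 3659, 3980, 7082 and 6575 against 2456, 4144, 7034 and 6774, a difference of -0.12 (95% interval -0.94 to 0.70). In both genes the spread within a genotype was between libraries 1 and 2 on one side and 3 and 4 on the other. With the number set as a term, the interval for Dock5 narrowed to between -0.44 and 0.20, and that for Dock2 to between -0.14 and 0.18. With the presence of Xist reads as a term the differences moved to -0.37 for Dock5 (95% interval -0.81 to 0.07) and 0.14 for Dock2 (95% interval -0.01 to 0.29), and neither passed (limma adjusted p = 0.624 for both). Dock4, whose product acts on Rac and Rap, had 2081, 2086, 2491 and 1899 against 1815, 2383, 2198 and 2353, a difference of 0.03 (95% interval -0.22 to 0.29).

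Of the members that act on Cdc42, Dock8 had the tightest control values, 6541, 6546, 6604 and 6503, against 6813, 7494, 6677 and 6881 in the Elmo1-/- libraries. Every Elmo1-/- library was above every control, by a mean of 6966 ± 362 against 6548 ± 41.6 (SD, n = 4 each). The difference of 0.09 (SE 0.06, 95% interval -0.05 to 0.23) did not pass (limma adjusted p = 0.9999), although the exact permutation test gave its smallest value, p = 0.0286. Dock8 kept its sign in both number sets, 0.13 in libraries 1 and 2 and 0.05 in 3 and 4, and its difference was 0.05 without Elmo1-/- library 2. Dock10 ranged from 3016 to 3790 in Elmo1+/- and from 2731 to 3929 in Elmo1-/- libraries, a difference of 0.02 (95% interval -0.27 to 0.31). With the number set as a term the interval for Dock10 was -0.14 to 0.17. Dock11, which lies on the X chromosome, ranged from 1782 to 2182 and from 1811 to 1931, a difference of -0.06 (95% interval -0.24 to 0.11) that was -0.01 without Elmo1+/- library 2.

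**Figure D2:**
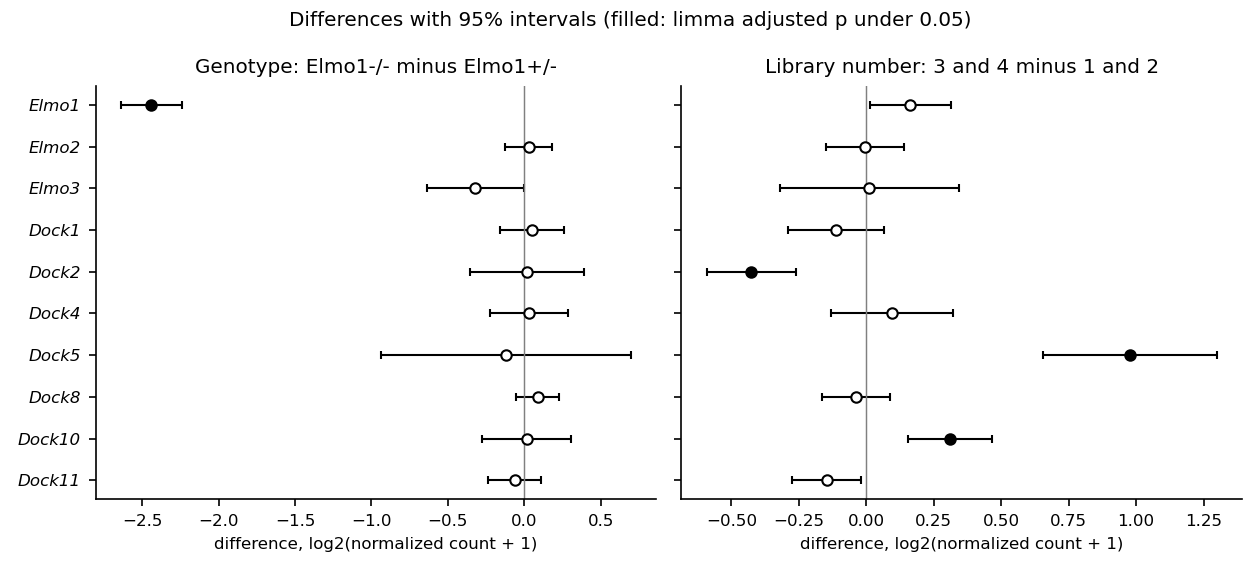
Differences of log2(normalized count + 1) with 95% intervals for the 10 genes, on the left between genotypes and on the right between library numbers, with filled points where the limma adjusted p is under 0.05. Elmo1 at -2.44 is the only filled point on the left, and Dock2 at -0.43, Dock5 at 0.98 and Dock10 at 0.31 are filled on the right.

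Whether the genotype difference itself depended on the number set was tested with an interaction term. No member passed, and no gene of the 14139 did by limma (0.0%) or by edgeR, with 378 and 393 genes at an unadjusted p under 0.05, while DESeq2 called 14. For Elmo1 the difference was -2.39 within libraries 1 and 2 and -2.49 within 3 and 4 (interaction -0.10, 95% interval -0.42 to 0.21). For Dock5 it was -0.26 and 0.02 (interaction 0.28, 95% interval -0.36 to 0.91).

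To compare the members with each other, counts were divided by the length of the merged exons of each gene in kb. In Elmo1+/- libraries Dock2 (681 ± 118 normalized counts per kb, SD, n = 4) and Dock8 (650 ± 4.13) were highest and overlapped. Dock5 followed with 438 ± 144, below Dock8 in 4 of 4 libraries, and it overlapped Elmo2 at 301 ± 14.5. Dock11 (213 ± 19.8) and Dock10 (185 ± 19.0) overlapped each other and lay below Elmo2 in every control. Elmo1 (127 ± 11.9), Dock1 (113 ± 4.23) and Dock4 (93.3 ± 10.9) came next, and each overlapped its neighbour. Elmo3 was far below at 16.3 ± 1.43. In Elmo1-/- libraries the means of the other 9 genes had the same order, although Dock2 was above Dock8 in only 1 of 4 libraries and second to it by the median (654 against 680), and Elmo1 at 23.2 ± 1.40 moved from rank 7 to rank 9, above Elmo3 (13.0 ± 0.893) and below Dock4 (95.4 ± 11.4). The order depended on the length used too. By the longest transcript of each gene, Dock10 moved from rank 6 to 4, Elmo2 from 4 to 5, Dock11 from 5 to 6, and Dock4 from 9 to 8 before Dock1 at rank 9, while Dock2, Dock8, Dock5, Elmo1 and Elmo3 stayed at ranks 1, 2, 3, 7 and 10.

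**Figure D3:**
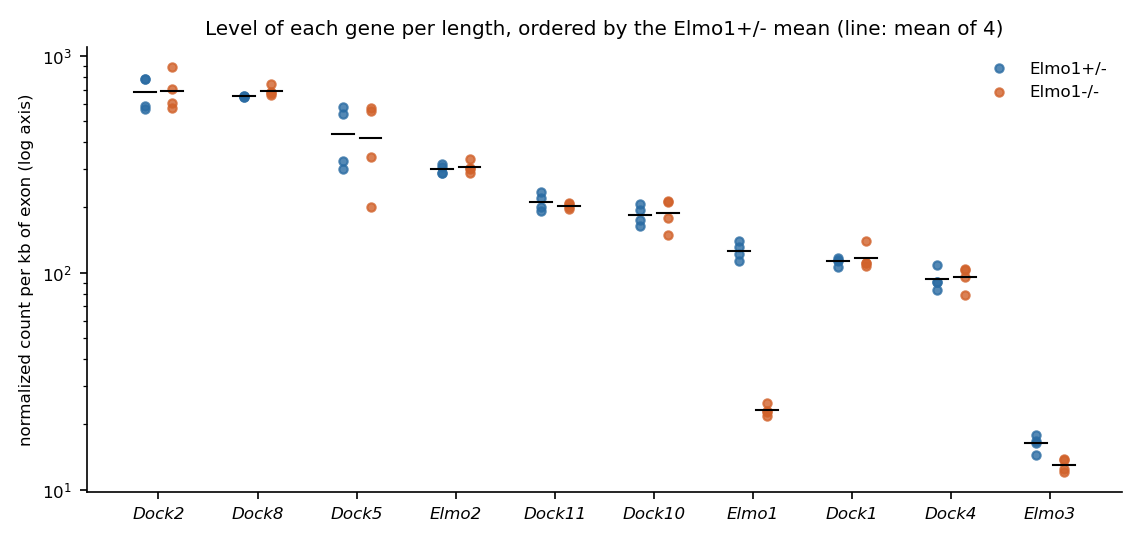
Normalized count per kb of merged exon (log axis) of the 10 genes in each library, ordered by the Elmo1+/- mean, with a line at the mean of 4. Dock2 and Dock8 lead at 681 and 650 in Elmo1+/-, and Elmo1 goes from 127 to 23.2. The much smaller shifts of Elmo3 (16.3 to 13.0) and Dock8 (650 to 692) also leave no overlap between genotypes, and neither passed by limma. Ranges did not overlap for 0.941% of all genes tested.

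The levels per length of the ELMO genes were added to show what remained of the scaffolds as mRNA. Elmo2 already made up 67.8% ± 1.37 (SD, n = 4) of the sum in Elmo1+/- libraries, with 28.5% ± 1.61 from Elmo1 and 3.70% ± 0.501 from Elmo3. In Elmo1-/- libraries the sum fell from 444 ± 22.4 to 343 ± 18.6 normalized counts per kb, and Elmo2 made up 89.4% ± 0.831 of it. By the longest transcript the sum fell from 736 ± 41.7 to 503 ± 26.6, and the share of Elmo2 went from 58.0% to 86.5%. No Elmo1-/- library reached the lowest control sum by either length. The counts of Elmo2 itself are those given above, with overlapping ranges in both genotypes.

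The sum of the DOCK-A genes was nearly the same in all 8 libraries, while its makeup was not. Dock1, Dock2 and Dock5 together lay between 1183 and 1268 normalized counts per kb, with means of 1231 ± 26.4 in Elmo1+/- and 1229 ± 44.2 in Elmo1-/-. Within that sum the ratio of Dock5 to Dock2 was 0.384 and 0.418 in Elmo1+/- libraries 1 and 2, and 1.02 and 0.918 in 3 and 4. In the Elmo1-/- libraries it was 0.228, 0.484, 1.00 and 0.921. Dock2 provided 65.7% ± 6.05 of the sum in libraries numbered 1 and 2 and 46.4% ± 1.18 in those numbered 3 and 4, and Dock5 24.4% ± 5.25 and 44.8% ± 1.37. The sum itself was 1201 ± 16.1 and 1259 ± 10.5. By the longest transcript it was 1926 ± 50.9 and 1881 ± 16.1, so which number set had the larger sum depended on the length.

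**Figure D4:**
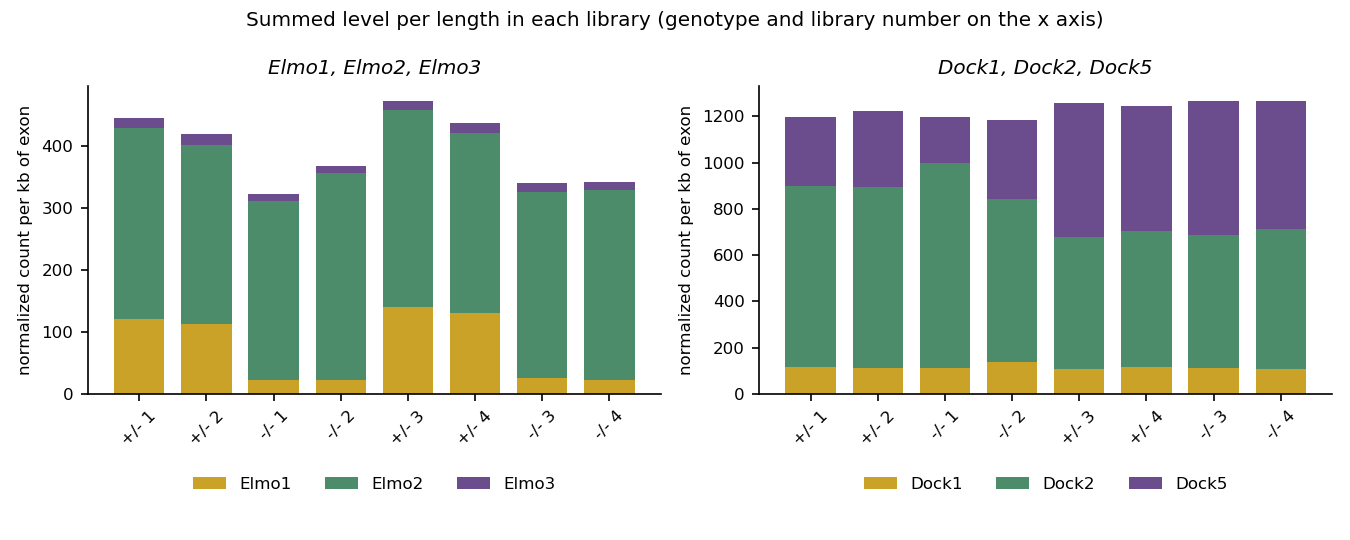
Summed normalized count per kb of merged exon in each library, for Elmo1, Elmo2 and Elmo3 on the left and for Dock1, Dock2 and Dock5 on the right, ordered by library number and genotype. The ELMO sum is lower in each Elmo1-/- library (at most 368) than in each control (at least 420), and the DOCK-A sum stays between 1183 and 1268 while the share of Dock5 is larger in libraries 3 and 4.

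Between libraries 1 and 2 and libraries 3 and 4, in a model that also held genotype, limma called 4603 of 14139 genes (32.6%), 2400 higher in 3 and 4 (17.0%) and 2203 lower (15.6%). This split was known from earlier work on these data, and it is not a contrast the labels define. Of the 10 members 3 passed, 2 higher and 1 lower, a share close to that of all genes. Dock5 rose from 3560 ± 763 to 6866 ± 237 (SD, n = 4 each), a log2 difference of 0.98 (SE 0.14, 95% interval 0.65 to 1.30, limma adjusted p = 0.0018). Dock10 rose from 3051 ± 238 to 3778 ± 170 (0.31, SE 0.07, adjusted p = 0.0095), and Dock2 fell from 9010 ± 861 to 6682 ± 171 (-0.43, SE 0.07, adjusted p = 0.0029). Dock11, at 2020 ± 123 and 1823 ± 33.5, missed the threshold (-0.15, adjusted p = 0.0751), as did Elmo1 (0.16, adjusted p = 0.0879). Without Elmo1-/- library 2, both passed (adjusted p = 0.0341 for Dock11 and 0.0382 for Elmo1) and 5 members were called. Elmo2 differed by -0.0045 (95% interval -0.15 to 0.14) and Dock8 by -0.04 (95% interval -0.16 to 0.09).

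Marker levels in these sets are given beside the members. Of all genes tested, 17.0% were called higher and 15.6% lower in libraries 3 and 4. All 10 osteoclast markers were higher in libraries 3 and 4, with summed counts of 450909 to 692445 in libraries 1 and 2 and 1029113 to 1173015 in 3 and 4. Ctsk, for example, rose from 110302 to 316338. Of the macrophage markers 2 of 5 were called lower in libraries 3 and 4, where their sum was 160019 to 202665 against 186985 to 216225. Of the neutrophil markers 1 of 9 was called lower (11.1%), a share no larger than that of all genes, with a median log2 difference of -0.61 over the list. Their sum was 10389 to 13966 in libraries 3 and 4 against 13177 to 22647 in 1 and 2. Of the other cell type markers that could be tested, Cd79b fell by 0.80 (limma adjusted p = 0.0091) and Cd4 by 1.04 (adjusted p = 0.0289), and the dendritic cell marker Zbtb46 rose by 0.89 (adjusted p = 0.0082), while none of 3 stromal markers was called. Dock5 was lowest in Elmo1-/- library 1, the library with the lowest summed osteoclast markers, and there Dock2 was highest. With the presence of Xist reads as a further term, which leaves 1 library to separate it from the number set, 185 genes and no member passed. The differences were then 0.61 for Dock5 (adjusted p = 0.183), 0.20 for Dock10 (adjusted p = 0.357) and -0.22 for Dock2 (adjusted p = 0.205). The part of the marker levels in the differences of the members was not tested, and number set, experiment and Xist status cannot be told apart beyond that library.

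**Figure D5:**
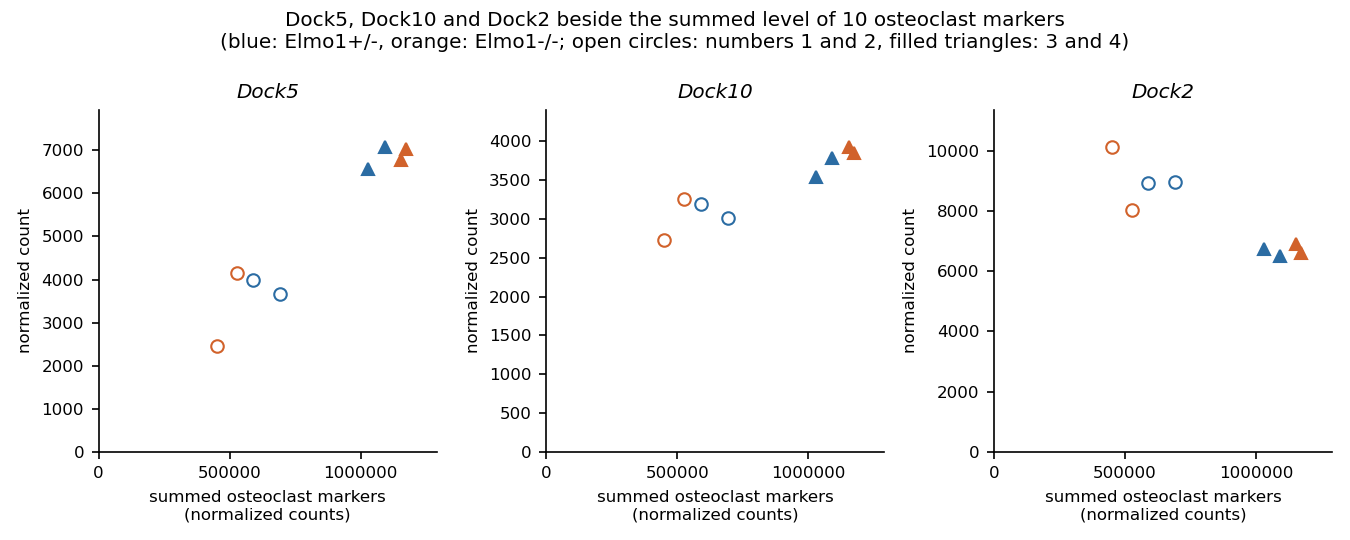
Normalized counts of Dock5, Dock10 and Dock2 (y axes) against the summed normalized counts of 10 osteoclast markers (x axes) in the 8 libraries, coloured by genotype and with open circles for numbers 1 and 2. The libraries fall into separate clusters by number, with Dock5 at 2456 to 4144 in the left cluster and 6575 to 7082 in the right, so no correlation is given.

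The promoters of Dock2 and Dock10 are shown because both genes were called between the number sets, in opposite directions. Each stretch holds the 250 bases before the start of the gene, from RefSeq on GRCm38.p6, 5′ to 3′ on the strand of the gene, with matches to 2 short motifs in capitals, on either strand. The motifs were the core of NFAT sites, GGAAA, and the core of PU.1 sites, GAGGAA, both factors of osteoclast formation, and they overlap in GAGGAAA. An AP-1 site, TGANTCA, was searched too and had no match in either. The Dock2 stretch lies at chr11:34783906-34784155 on the minus strand and the Dock10 stretch at chr1:80758554-80758803 on the minus strand.
Dock2: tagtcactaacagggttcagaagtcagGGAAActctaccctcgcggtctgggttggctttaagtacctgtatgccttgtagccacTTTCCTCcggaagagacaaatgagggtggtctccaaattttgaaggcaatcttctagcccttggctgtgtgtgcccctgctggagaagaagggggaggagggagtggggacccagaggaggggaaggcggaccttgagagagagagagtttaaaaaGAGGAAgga
Dock10: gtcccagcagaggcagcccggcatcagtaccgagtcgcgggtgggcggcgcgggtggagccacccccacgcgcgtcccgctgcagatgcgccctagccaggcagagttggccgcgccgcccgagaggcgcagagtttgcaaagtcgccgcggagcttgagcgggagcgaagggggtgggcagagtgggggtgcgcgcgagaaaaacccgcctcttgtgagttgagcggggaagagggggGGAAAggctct
Dock2 had 2 matches to the NFAT core and 2 to the PU.1 core, and Dock10 had 1 and 0. Over all 32851 promoters of the same length, 55.6% held the NFAT core, 23.3% the PU.1 core and 6.75% the AP-1 site, so that such matches are common. Of the members, 8 had a promoter entry, and Dock5 and Elmo3 did not.

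Other genes of the DOCK and ELMO-domain families were Dock3, Dock6, Dock9, Elmod1, Elmod2 and Elmod3. Of these, Dock3 and Elmod1 were below the minimum level. None of the 4 tested genes was called between genotypes, with differences of -0.12 for Dock6, -0.11 for Dock9, -0.03 for Elmod2 and -0.0076 for Elmod3. Between the number sets 2 of the 4 rose in libraries 3 and 4, Dock9, a Cdc42 exchange factor, by 0.94 (limma adjusted p = 0.0013), from 60.8 ± 7.37 to 117 ± 8.42, and Elmod2, whose product activates GTP hydrolysis on Arl proteins, by 0.26 (adjusted p = 0.0211). Neither passed with Xist status as a term (0.80, adjusted p = 0.0938, and 0.16, adjusted p = 0.521). The Dock9 difference is close in size to that of Dock5, at a level per kb far below it.

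The GTPases downstream and upstream of the members were a list of 8, all tested, and none was called between genotypes. Rac2, the Rac of blood cells, was the most abundant, at 40069 ± 1912 in Elmo1+/- and 38722 ± 4893 in Elmo1-/- libraries. Rac1, the Rac found in all tissues, had 11247 ± 260 and 11285 ± 277. Rac3 had counts of 54.3, 62.3, 44.2 and 44.7 against 35.9, 38.3, 39.2 and 29.6, on 29 to 63 reads per library. Every Elmo1-/- library thus lay below every control, as for 62 of the 14139 genes tested (0.439%). The Rac3 difference of -0.50 (SE 0.18) had an unadjusted limma p of 0.020 and did not pass the correction (adjusted p = 0.9999). Rhog, which binds ELMO directly, differed by 0.04 between genotypes, and it fell between number sets by 0.43 (adjusted p = 0.0105), with 9962 ± 1601 and 7321 ± 134, the same direction as Dock2. With Xist status as a term the Rhog difference was -0.11 and no longer passed (adjusted p = 0.652).

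Of the 24 upstream partners of ELMO and DOCK 18 were tested and none was called between genotypes. The lowest difference was that of Adgrb1, the receptor BAI1 that binds ELMO1, at -0.26, the highest that of Axl, a receptor for phosphatidylserine-bound ligands, at 0.47, and Msn, an ERM protein, had the highest level (58892 in Elmo1+/- and 59703 in Elmo1-/-). Of 25 other exchange factors for Rac and Cdc42, 24 were tested and none was called, from -0.32 for Plekhg5 to 0.16 for Farp2, with Prex1 the most abundant. Of 20 Rac effectors and WAVE complex genes 17 were tested with none called, from -0.29 for Nckap1 to 0.21 for Abi3, with Iqgap1 the most abundant. Of 15 genes for GTPase-activating and GDI proteins 14 were tested with none called, the lowest at -0.17 for Srgap3, with Arhgdia the most abundant. The medians of these 4 lists were 0.02, -0.03, 0.03 and 0.0053.

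Between the number sets 32.6% of all genes were called. Shares in these 4 lists ran from 35.3% to 72.2%, the lowest close to that of all genes. In the list of 8 GTPases the share was 12.5%, below that of all genes. The counts below are of called genes. Of the upstream partners 9 rose and 4 fell in libraries 3 and 4 (72.2% of those tested), with Adgrb1 up by 1.56 and Itgav and Itgb3, which form the vitronectin receptor of osteoclasts, up by 1.29 and 0.95, while Stab1, a receptor of macrophages, fell by 0.91. Of the other exchange factors 10 rose and 6 fell (66.7%), Fgd1 by 1.31 upward and Rasgrf1 by -0.65. Of the 17 effectors and WAVE complex genes 6 were called higher and none lower (35.3%), with Nckap1, a WAVE complex subunit, up by 1.56. Of the GTPase-activating and GDI genes 3 rose and 3 fell (42.9%), Srgap3 by 1.36 upward and Racgap1 by -0.66.

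The genes whose levels followed Elmo2 and Dock5 most closely over the 8 libraries were listed as a description, with libraries that share number sets. For Elmo2 they were Prokr1 (Pearson r = 0.952), Gm8464 (0.948) and Mthfd2l (0.946), on an Elmo2 range of only 1920 to 2217. For Dock5 they were Zfand5 (0.998), Acap2 (0.997) and Dld (0.997), and all 3 were thus split by library number as Dock5 was.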

How the data were processed

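The authors prepared mRNA libraries (Illumina TruSeq) and sequenced them as 75 bp paired-end reads. FastQC, STAR, featureCounts and DESeq2 are named in the submitters' processing notes, with no versions, while for genome build, annotation and strand setting nothing is given in the sources used here. What the authors deposited is a normalized signal for 46517 genes, in which DESeq2 scaled the reads of each library by its size factor. The authors' table also holds their own DESeq2 comparison (log2 fold change, standard error, statistic, p-value, adjusted p-value), which was not used. Whole reads were recovered for 100% of values within 0.01 of a read.

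Symbols came from GENCODE M21 (GRCm38), in which 46005 identifiers matched and 512 did not. The main test was limma 3.58.1 (trend, robust) in R 4.3.3 on log2(normalized count + 1), a scale that understates changes of low genes, for the 14139 genes that reached 10 in 4 or more libraries. Adjustment by Benjamini-Hochberg ran over all of them, with a threshold of 0.05. For single genes an exact permutation test was added. Alternatives were edgeR 4.0.16 and DESeq2 1.42.0 on recovered reads, TMM scaling, no filter, a stricter minimum (50), other pseudocounts (0.5 and 8), fits without each library, the replicate number as a block and the number set as a term. Xist status as a term was added after the values were seen. Libraries with the same number deviated together (correlations 0.156 to 0.703, each above the minimum of 0.1 used here), which meets the rule used for pairing. Different numbers within 1 and 2 or within 3 and 4 gave 0.0259 to 0.691, so the numbers show little beyond that split, and what they stand for is not stated. No libraries were copies (chi-square per gene 8.72 to 190). The genotype, number set and interaction fits by limma, edgeR and DESeq2 were tested on simulated data, and the other settings were not. The members and lists were chosen with earlier results of these data known. The genes named are the members, the other DOCK and ELMO-domain genes, the lowest, highest and most abundant gene of each other list, its called genes, and the 3 genes most like Elmo2 and Dock5. Of the genes called between number sets examples are given. A few genes that this rule takes in are not reported here.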

Additional observations from a re-analysis of the deposited data

Results flagged for a closer look

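Dock1 in Elmo1-/- library 2 lay far from the other 3 Elmo1-/- libraries, at 1303 normalized counts, with a gap of 0.88 of the range of the group. Dock6 in Elmo1-/- library 1 lay apart in the same way at 241 normalized counts, with a gap of 0.861 of the range. These were 2 of 30 groups of 4 libraries examined, and chance gives about 1 in 20.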

How the results depend on the processing

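Elmo1 passed in all 19 settings (-2.49 to -2.39) and no other member passed between genotypes in any of them. The replicate number as a block gave -2.44 for Elmo1 and called 1 gene, and it changed no other call. DESeq2 called 2 genes between genotypes, and leaving out each library in turn gave 1 to 2 (2 without Elmo1+/- library 2). Small differences changed sign: with Xist status as a term Dock4 was at -0.0152 and Dock10 at -0.0638 between genotypes (Dock5 moved to -0.37 and Dock2 to 0.14) and Dock4 at -0.12 between number sets, and with TMM scaling Elmo2 was at 0.0028 between number sets. When each library was left out in turn, genotype differences ran from -0.0118 to 0.0569 for Elmo2, from -0.0369 to 0.0888 for Dock1, from -0.11 to 0.10 for Dock2, from -0.0241 to 0.12 for Dock4, from -0.32 to 0.19 for Dock5, from 0.0523 to 0.11 for Dock8, from -0.0524 to 0.12 for Dock10 and from -0.11 to -0.0114 for Dock11, and number set differences from -0.0398 to 0.0426 for Elmo2 and from -0.0291 to 0.0829 for Elmo3. Leaving out each library called 2861 to 6897 genes between number sets, the most without Elmo1-/- library 2, with 3 to 5 members. With Xist status as a term 185 genes and 0 members were called. Fewer samples enter each fit that leaves out a library, and otherwise the cause was not tested. Levels of Elmo3 rest on 33 to 63 reads, and its genotype difference ran from -0.38 to -0.28 when each library was left out in turn.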
